A study of Camellia japonica and Camellia azalea with 81 samples.

Results

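The 60 gene IDs described here were on average higher in summer than in winter in leaves of Camellia japonica. In leaves of Camellia azalea it was the other way round. They were chosen by that pattern, that is, selected on the winter and summer leaf values themselves. Among 41952 IDs present in both species' expression tables, 14270 had a mean of at least 5 TPM (transcript abundance scaled so that every library has the same total) in C. japonica summer leaves and in C. azalea winter leaves. For each of these the winter minus summer difference was taken on log2(TPM + 1) in each species, with winter as December, January and February and summer as June, July and August. The IDs were ranked by the smaller of the C. japonica difference with its sign turned and the C. azalea difference, and the first 60 were taken.

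The series compares seasonal gene expression in these 2 evergreen shrubs of the tea family. Young leaves of C. japonica and of C. azalea are labelled by month, 3 libraries for every one of 12 months, and C. japonica flower buds are labelled FB-1, FB-2 or FB-3 (3 libraries per label, the stage or month behind it not being given). No genotype, treatment or plant age is given in the labels, and nor is it stated if libraries sharing a label stem from different plants. P-values therefore measure only the spread between samples, and that spread may be technical. TPM keep no depth, so the depth of each of the 81 libraries is unknown. Spring is March, April and May, and autumn is September, October and November.

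Camellias keep their leaves through the year and set flower buds long before they open. C. japonica is known for flowering in the cool season and C. azalea for flowering mainly in the warm season. Leaf gene expression in woody plants is known to vary with temperature, day length and the age of the leaf. In bulk tissue of this kind fewer cells of a type and less RNA per cell cannot be told apart. The files give IDs without gene names, functions or sequences, and none could be attached here, so members are described by their values, at most 2 higher and 2 lower ones being named per comparison.

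Some libraries stood apart from their labels. A list of 200 other bud-high IDs, drawn up after the data were seen from the bud and leaf fit below, had a median of 5.20 on the log2(TPM + 1) scale in the library labelled Feb leaf 1 of C. japonica and of 0 in the library labelled FB-1 1. Feb leaf 1 had no share in that fit, and it was left out of the selection and of every other fit. FB-1 1 was among the buds of that fit. The list had a median of 2.27 in Mar leaf 3 of C. japonica, against 0 to 0.84 in the other C. japonica leaves but Feb leaf 1, and of 2.18 in Jan leaf 1 of C. azalea, against 0 to 0.54 in the other C. azalea leaves. The median over the 60 members was 6.30 in Feb leaf 1, against 1.84 to 1.98 in the other Feb libraries, which the selection had used, so that this gap is a description. In FB-1 1 it was 2.13, against 4.78 to 6.38 in the other 8 buds. Whether the libraries labelled Feb leaf 1 and FB-1 1 were exchanged was not tested, and nothing was relabelled.

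The winter minus summer differences that chose the members ran from -3.46 to -0.72 in C. japonica, with a median of -1.31. In C. azalea they ran from 0.73 to 3.30, with a median of 1.13. Over all 14270 eligible IDs the medians were 0.28 in C. japonica and 0.29 in C. azalea. These values are the selection itself and carry no test. A difference of at least 1 in both opposed directions was rare, being found for 27 eligible IDs. With the species exchanged, winter-high in C. japonica and summer-high in C. azalea, 33 of 13658 IDs reached it.

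The members' mean level in C. japonica ran from 0.216 to 194 TPM in winter leaves (median 4.73), against 5.22 to 507 TPM in summer leaves (median 17.4). In C. azalea it ran from 5.21 to 494 TPM in winter leaves (median 27), against 1.01 to 91.0 TPM in summer leaves (median 6.61). No member's seasons were free of overlap. The count of members whose high-season libraries all lay above all low-season libraries was 0 in C. japonica, where 0.399% of eligible IDs did so, and 0 in C. azalea, where 0.918% did. With 8 winter and 9 summer libraries in C. japonica and 9 of each in C. azalea, the opposition is one of means.

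The member ranked first was EVM0012501. In C. japonica it had 0.855, 2.13 and 6.41 TPM as lowest, median and highest of the 8 winter leaf libraries, against 1.57, 11.8 and 51.6 TPM of the 9 summer ones. In C. azalea it had 1.98, 63.5 and 630.1 TPM in winter leaves, against 0.974, 4.09 and 20.5 TPM in summer leaves. The seasons overlapped in both species, and the highest C. azalea values were the January ones (223, 630.1 and 361 TPM), while December lay between 1.98 and 9.35 TPM. The differences were -1.91 in C. japonica and 3.30 in C. azalea. The second, EVM0028297, had 2.85, 7.49 and 11.5 TPM in C. japonica winter leaves, against 5.36, 64.7 and 106 TPM in summer leaves. Its C. azalea values were 1.40, 43.3 and 66.5 TPM in winter leaves, against 0.784, 2.57 and 42.5 TPM in summer leaves. All 3 June libraries of C. azalea were high among the summer ones for EVM0028297, between 26.7 and 42.5 TPM.

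EVM0009999 and EVM0000365 had the smallest overlap of seasons by 1 measure. This was the distance on log2(TPM + 1) from the lowest high-season to the highest low-season library, in the species where it was worse. EVM0009999 had 4.63, 9.04 and 16.9 TPM in C. japonica winter leaves, against 16.7, 39.5 and 65.6 TPM in summer leaves, where only the edges touched. In C. azalea it had 5.20, 6.28 and 16.2 TPM in winter leaves, against 0, 4.68 and 8.84 TPM in summer leaves. Only 1 of these 9 winter libraries, Dec leaf 2, lay above every summer one. The C. azalea mean of EVM0009999 was higher in autumn, at 12.1 TPM, than in winter, at 7.44 TPM. EVM0000365 was also the last ID taken, at rank 60, with a smaller difference of 0.72. Its mean was 12.2 ± 4.0 TPM in winter and 20.5 ± 4.92 TPM in summer leaves of C. japonica (SD, n = 8 and 9), and 13.8 ± 6.28 TPM in winter and 6.90 ± 2.98 TPM in summer leaves of C. azalea (SD, n = 9 each). The first ID left out, EVM0003665 at rank 61, had a smaller difference of 0.71, so the border of the group falls within a continuum.

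Month by month, the pattern was narrower than the season names say. In C. japonica 30 of the 60 members had their highest month mean in July, 8 in November, 7 in June, 6 in March and 5 in August, and the lowest was in December for 23 and in February for 12. Among eligible IDs 5.47% were highest in July, 13.4% in November, 3.25% in June, 14.9% in March and 7.69% in August. The median over members was 1.91 in December and 4.53 in July on the log2(TPM + 1) scale. In C. azalea 30 members were highest in January, 12 in February, 8 in March and 5 in April, where 28.8%, 10.8%, 1.94% and 13.2% of eligible IDs were. The winter and summer months in these counts are the ones the selection used. The lowest month in C. azalea was December for 24 members, July for 21, June for 4 and August for 2. December was thus the low point for more members than any single summer month. The share of eligible IDs lowest in each month was not taken. The members' C. azalea medians were 5.0 in January, 4.96 in February, 4.74 in March and 3.97 in April, against 1.75 in December and 1.83 in July. Over eligible IDs the C. azalea median was also lowest in December, at 3.96, against 4.67 in January and 4.20 in July. The high months of C. azalea were thus January to April, with May at 3.5 and June at 2.92.

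**Figure D1:**
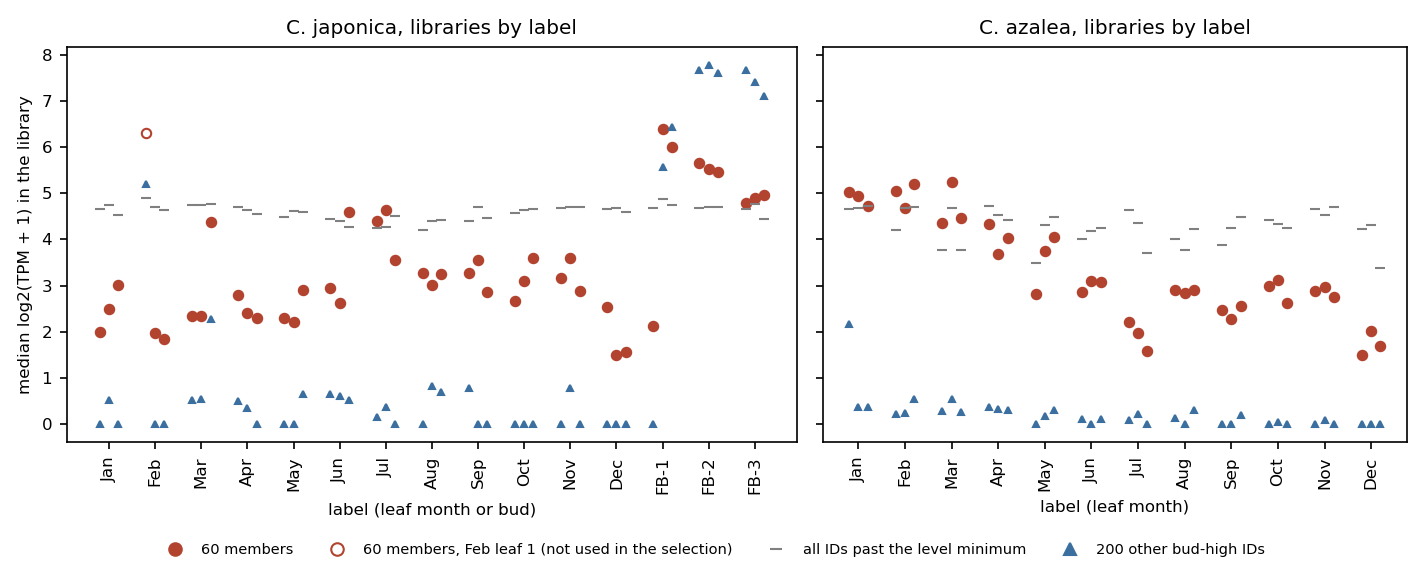
Median log2(TPM + 1) of the 60 members in each library (circles), of all IDs past the level minimum (dashes) and of 200 other bud-high IDs (triangles), by label, for C. japonica (left) and C. azalea (right). C. japonica members are highest in Feb leaf 1 (open circle, 6.30) and in the buds other than FB-1 1, while C. azalea members are high from January to April and lowest in December and July.

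**Figure D2:**
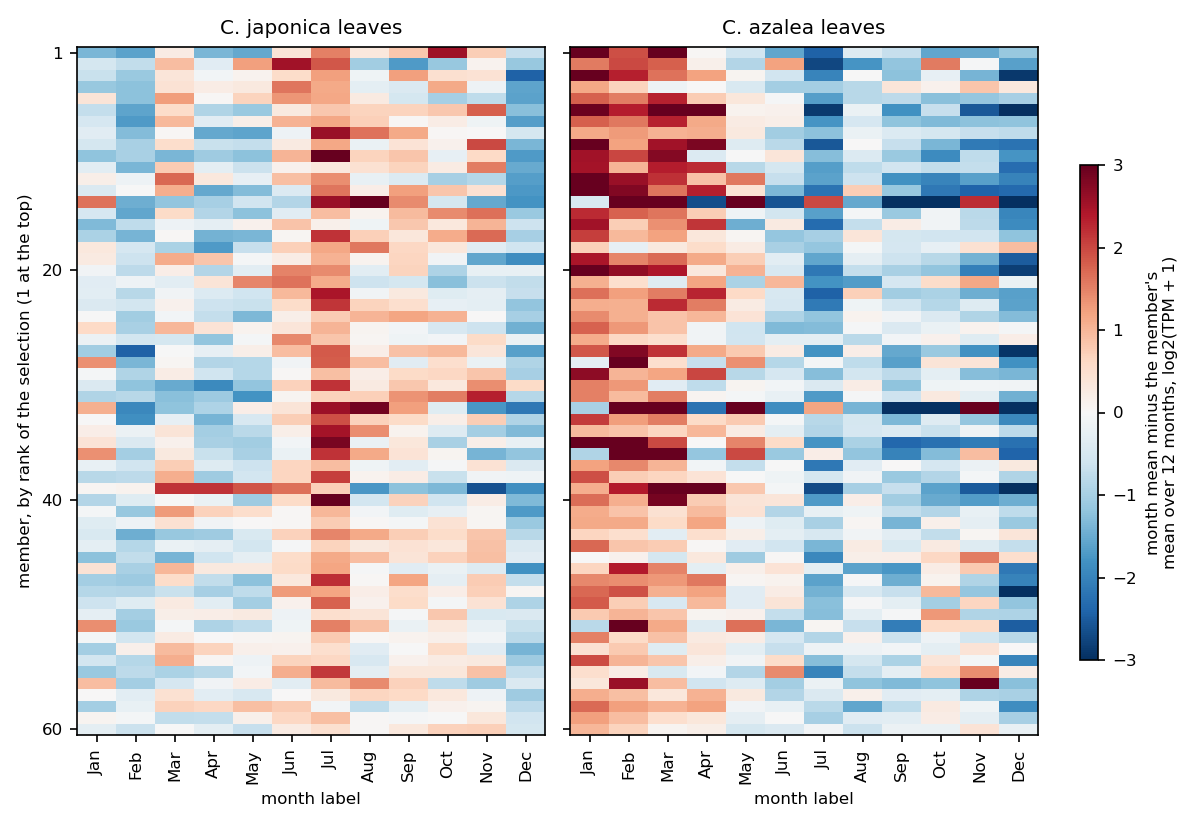
Month mean minus the member's mean over 12 months, on log2(TPM + 1), with 1 row per member in the order of the selection and 1 column per month label. Colours are clipped at the ends of the scale. The July column stands out in C. japonica and the January to March columns in C. azalea, with December and July low in C. azalea.

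Single libraries carried part of the summer level in C. japonica. Medians over the members were 4.59 in Jun leaf 3, 4.40 in Jul leaf 1 and 4.63 in Jul leaf 2, against 2.62 to 3.56 in the other 6 summer libraries. Jun leaf 3 was thus nearer to Jul leaf 1 and Jul leaf 2 than to Jun leaf 1 (2.95) and Jun leaf 2 (2.62). Jul leaf 3, at 3.56, lay below the other July libraries. The counts by month above rest on the labels, and whether these hold was not tested. Among the 9 summer libraries, 19 members were highest in Jul leaf 2, 14 in Jul leaf 1 and 12 in Jul leaf 3. The 200 bud-high IDs had medians of 0.53, 0.16 and 0.37 in Jun leaf 3, Jul leaf 1 and Jul leaf 2, within the range of the other summer leaves. In C. azalea winter 20 members were highest in Jan leaf 2, 14 in Jan leaf 3 and 13 in Feb leaf 3. The share of eligible IDs highest in each library was not taken, and the selection used all these libraries.

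Spring against autumn leaves gave a test in libraries that the selection had not used. limma was fitted to log2(TPM + 1) of the 18 spring and autumn libraries of a species, with a mean for each month and p-values adjusted by Benjamini-Hochberg over all IDs tested. Months of a season were weighted equally, and the SE and p rest on the spread between libraries of the same month, so that the spread between months of a season is not in them. Taking month means as the unit is the alternative that uses it. IDs with an adjusted p below 0.05 that also differed by at least 1 on the log2 scale were called. In C. azalea 34 of the 60 members were called higher in spring, where 4.41% of all IDs were, and 2 were called lower, where 4.09% of all IDs were. Among eligible IDs 3.33% were called higher. The members' median difference was 1.09, against -0.05 over all IDs tested. With month means in place of libraries as the unit, 17 members were called higher and 0 lower.

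The largest rise was that of EVM0037495, with 13.1, 133 and 999 TPM as lowest, median and highest of 9 spring leaf libraries of C. azalea, against 1.31, 3.22 and 13.9 TPM in autumn. Of its spring libraries 8 of 9 lay above every autumn one. The log2 difference was 4.58 (SE 0.37), with limma's adjusted p of 3.77e-08. EVM0027551 had 17.4, 211 and 259 TPM in spring, against 2.44, 5.20 and 20.7 TPM in autumn. Here 7 of 9 spring libraries lay above every autumn one, the March and April ones being 139 TPM or higher, and the difference was 3.83 (SE 0.19, adjusted p of 1.37e-10 by limma).

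The 2 members lower in C. azalea spring leaves moved less. EVM0009999 had 0.810, 3.93 and 9.12 TPM in spring, against 5.40, 10.8 and 21.6 TPM in autumn, a difference of -1.21 (SE 0.22, limma adjusted p 0.000329). EVM0014045 had 1.87, 2.97 and 6.19 TPM in spring, against 3.24, 7.86 and 15.7 TPM in autumn, a difference of -1.05 (SE 0.20, limma adjusted p 0.000525). The seasons overlapped for both, with 6 of 9 and 5 of 9 spring libraries below every autumn one. EVM0014045 was no longer called without Oct leaf 1 or after median-of-ratios scaling, where the difference was -0.94 each time, and neither was called with month means as the unit, at adjusted p of 0.166 for EVM0009999 and 0.213 for EVM0014045.

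In C. japonica the same contrast leaned the other way. Here 5 members were called higher in spring, where 5.13% of all IDs were, and 13 were called lower, where 2.75% were. The members' median difference was -0.54, against 0.00 over all IDs tested. Without Mar leaf 3, 2 members were called higher and 18 lower. The total of 18 called members was 11 without Nov leaf 2, 12 without Mar leaf 2 and 12 without May leaf 2.

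EVM0007121 had the largest fall, with 0.109, 0.82 and 1.86 TPM in C. japonica spring leaves, against 5.05, 16.8 and 37.8 TPM in autumn. The groups did not overlap, and the difference was -3.12 (SE 0.35, limma adjusted p 6.33e-05). EVM0010459 had 0.668, 0.974 and 4.96 TPM in spring, against 5.26, 12.3 and 24.2 TPM in autumn, again without overlap, and a difference of -2.38 (SE 0.29, limma adjusted p 0.000122). EVM0037495 moved as it did in C. azalea, with 33.9, 91.3 and 181 TPM in spring, against 0.313, 5.40 and 17 TPM in autumn. All 9 spring libraries lay above every autumn one, with a difference of 3.81 (SE 0.44, limma adjusted p 8.1e-05). EVM0028297 had 3.33, 17.7 and 83.1 TPM in spring, against 0.565, 7.93 and 33.2 TPM in autumn. Its difference of 1.51 (SE 0.49, limma adjusted p 0.0419) was lost on leaving out any of 12 of the 18 libraries, one of them Mar leaf 3, with adjusted p reaching 0.0837. It was also lost with no filter on low values, at an adjusted p of 0.0596, and with month means as the unit, at 0.107.

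The species difference was tested as a difference of differences, the C. japonica spring minus autumn value less the C. azalea one, since the tables were normalized separately and levels were not compared across them. It was called lower in C. japonica for 33 of 60 members, where 6.92% of all IDs were, and higher for 1, where 9.2% were. The median was -1.75 over members and 0.03 over all IDs tested. Without Mar leaf 3 the counts were 37 lower and 1 higher, and with month means as the unit they were 24 and 0. By the calls within species, 25 members were called higher in C. azalea and not called in C. japonica, where 2.54% of eligible IDs were, and 6 were higher in C. azalea and lower in C. japonica, where 0.428% were. A further 5 were lower in C. japonica and not called in C. azalea (1.89% of eligible IDs), 3 were higher in both (0.351%), 2 lower in both (0.245%) and 2 higher in C. japonica and not called in C. azalea (2.73%). The other 17 were called in neither, where 88.1% of eligible IDs were.

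EVM0027551 showed the largest such difference. In C. japonica it had 1.63, 6.31 and 30.2 TPM in spring, against 5.02, 13 and 85.2 TPM in autumn, with 4 of 9 spring libraries below every autumn one. Set against the C. azalea rise given above, the species difference was -5.41 (SE 0.55, limma adjusted p 4.06e-08). EVM0036026 had 0, 0.637 and 36.5 TPM in C. japonica spring leaves, against 0.792, 5.60 and 31.8 TPM in autumn. The highest of its spring values was that of Mar leaf 3, and the other 8 had a mean of 1.02 TPM. In C. azalea it had 5.72, 23.1 and 37.6 TPM in spring, against 0.0631, 0.541 and 6.61 TPM in autumn, and the species difference was -4.77 (SE 0.59, limma adjusted p 7.62e-07), or -5.14 without Mar leaf 3. EVM0029158 was the 1 member with the opposite sign. Its values were 11.4, 23.6 and 65.3 TPM in spring and 2.51, 10.2 and 34.6 TPM in autumn in C. japonica, and 6.09, 14.5 and 46.1 TPM in spring and 8.27, 30.2 and 44.9 TPM in autumn in C. azalea. The species difference of 1.76 (SE 0.43, limma adjusted p 0.00283) was not called with month means, at an adjusted p of 0.183.

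**Figure D3:**
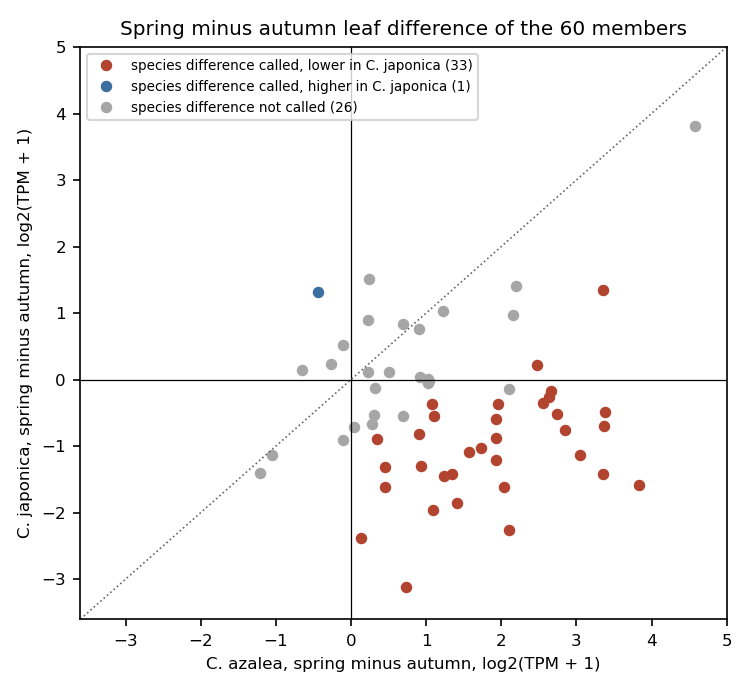
Spring minus autumn difference of each of the 60 members on log2(TPM + 1), in C. azalea (horizontal axis) and C. japonica (vertical axis), coloured by the call of the species difference. The dotted line marks equal differences. Of the members, 33 called lower in C. japonica lie below the line, and EVM0037495 lies near its upper end with 3.81 in C. japonica and 4.58 in C. azalea.

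The cooler flanking months, March and November, were also set against the warmer ones, May and September. In C. azalea 12 members were called higher in March and November, where 1.56% of all IDs were, and 0 lower, where 0.451% were (0 members were lower at an unadjusted p below 0.05). The median was 0.74 over members and 0.19 over all IDs. The general shift depended on the scaling: 407 IDs were called higher and 118 lower as deposited, against 275 and 272 after quantile normalization, where 8 members were called and the median was 0.54 over members and 0.01 over all IDs. With month means as the unit 0 members and 0 IDs were called. In C. japonica limma called 0 members, where 0.0618% of all IDs were called higher and 0.00727% lower, and 6 members had an unadjusted p below 0.05. The members' median there was 0.19, against 0.21 over all IDs, and -0.03 against 0.00 after quantile normalization.

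The species difference of this contrast was called lower in C. japonica for 3 members, where 0.327% of IDs were, and higher for 0, where 0.147% were (0 members were higher at an unadjusted p below 0.05). EVM0008064 had 0, 0.733 and 2.77 TPM as lowest, median and highest of the 6 March and November libraries of C. japonica, against 0.810, 2.99 and 508 TPM in May and September. The value of 508 TPM was that of Sep leaf 1, and the other 5 May and September libraries had a mean of 3.97 TPM. In C. azalea it had 157, 326 and 960.4 TPM in March and November, against 0.978, 92.4 and 348 TPM in May and September, with the May libraries inside the March and November range. The species difference was -6.16 (SE 1.25, limma adjusted p 0.0123), and -4.81 without that library. EVM0016210 had 0, 0.631 and 1.09 TPM in March and November of C. japonica, against 1.22, 1.71 and 153 TPM in May and September, the highest again in Sep leaf 1. In C. azalea it had 22.1, 231 and 855 TPM in March and November, against 0.453, 78.6 and 164 TPM in May and September. The species difference was -5.43 (SE 0.90, limma adjusted p 0.0016), and -4.46 without Sep leaf 1. Neither call held with month means or with all leaf libraries in the fit, where the adjusted p was 0.078 for EVM0008064 and 0.164 for EVM0016210.

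EVM0008064 and EVM0016210 belonged to 6 members, picked after their values were seen, whose level differed widely from library to library. Their mean level on the log2(TPM + 1) scale in C. azalea was 6.51 to 7.77 in February and 5.16 to 5.77 in March, against 1.67 to 1.89 in April. It was 4.64 to 5.21 in May, 1.34 to 1.85 in June, 2.97 to 4.25 in July, 0.64 to 0.74 in September and 3.98 to 5.62 in November. In December, a winter month of the selection, it was 0.38 to 0.71. In each of these months the 3 libraries lay closer together than in January, with November the widest. January was split, with 5.35 in Jan leaf 1 against 1.40 and 0.89 in the others. By the median, EVM0008064 (2.76 TPM in winter, 10.5 TPM in summer) and EVM0016210 (2.36 and 3.02 TPM) were not winter-high in C. azalea. Of the rest of the 6, EVM0039048 alone was (4.76 and 1.16 TPM). In C. japonica the high values fell on 1 or 2 of the 3 libraries of a month, with 7.63 in Jan leaf 3, 8.34 in Jul leaf 3, 4.96 and 5.29 in Aug leaf 1 and Aug leaf 3, 5.80 in Sep leaf 1 and 4.13 in Oct leaf 3. The other C. japonica leaf libraries lay between 0.42 and 2.56.

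EVM0016210 shows the size of these swings. It had 1586 TPM in Jul leaf 3 of C. japonica, against 1.87 and 1.73 TPM in the other July libraries, and 941 TPM in Jan leaf 3, against 0.478 and 0.261 TPM in the other January ones. In the 9 buds it did not exceed 1.08 TPM. Pairwise Pearson's r among the 6 over leaf libraries was 0.76 to 0.97 in C. japonica (median 0.87, n = 35) and 0.65 to 0.97 in C. azalea (median 0.82, n = 36). The median over all pairs of members was 0.37 in C. japonica and 0.56 in C. azalea. These are descriptions of libraries that share their month and their total, and the 6 were chosen for moving together.

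**Figure D4:**
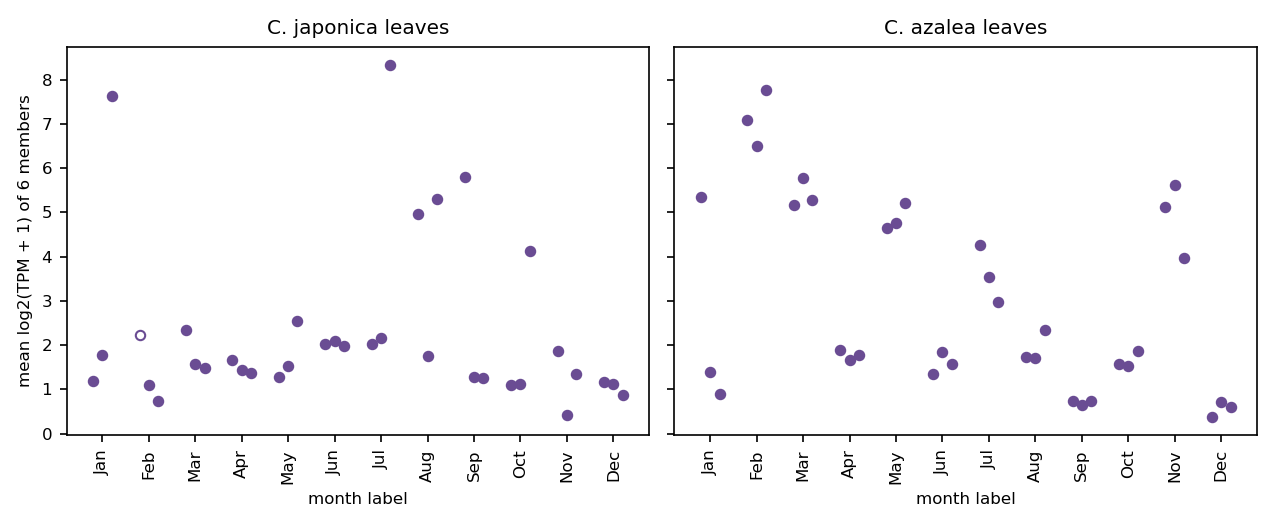
Mean log2(TPM + 1) of 6 members, picked after their values were seen, in each leaf library by month label, for C. japonica (left, Feb leaf 1 as an open circle) and C. azalea (right). In C. azalea the 3 libraries of a month lie closer together than in January, though November spans 3.98 to 5.62. In C. japonica libraries such as Jan leaf 3 (7.63) and Jul leaf 3 (8.34) stand above the rest of their month.

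Flower buds of C. japonica, which the selection did not use, held most members at a higher level than leaves. Against the 18 spring and autumn leaf libraries, with a mean for each month and bud label in the fit, limma called 41 of 60 members higher in buds, where 24.2% of all IDs and 11.1% of eligible IDs were, and 4 lower, where 11.2% and 17.5% were. The other 15 were not called. The median difference was 2.35 over members, against 0.39 over all IDs tested. The general split depended on the scaling, with 7686 IDs higher and 3540 lower as deposited, against 4919 and 5017 after quantile normalization. After it 37 members were called higher and 6 lower, with a median of 2.05, against 0.04 over all IDs. Without FB-1 1, 43 members were called higher, where 28% of all IDs were, and 4 lower, where 12% were, and the counts were 43 and 4 when Mar leaf 3 was left out too.

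EVM0010546 had the largest bud level relative to leaves. It was listed at 0, 515 and 407 TPM in the FB-1 libraries, 323, 227 and 328 TPM in FB-2 and 142, 198 and 120.5 TPM in FB-3. In the 18 leaf libraries its lowest, median and highest values were 0, 0.43 and 94.1 TPM, the highest being Mar leaf 3, without which the mean was 0.658 TPM. The 8 buds other than FB-1 1 lay above every leaf library, and the difference was 6.17 (SE 0.81, limma adjusted p 1.19e-06). It was 7.15 without FB-1 1 and 7.52 without Mar leaf 3 as well. The C. azalea winter mean of EVM0010546, 7.35 TPM, passed the minimum of 5 TPM only through Jan leaf 1, at 51.5 TPM. The other C. azalea winter libraries held 3.96 TPM or less. Jan leaf 1 was also the C. azalea leaf library with the highest median of the bud-high list, 2.18. EVM0022543 had 1.10 TPM in FB-1 1 and 105 to 330.3 TPM in the other 8 buds, against 0.39, 3.13 and 43.1 TPM in leaves, with a difference of 4.54 (SE 0.58, limma adjusted p 9.05e-07), or 5.28 without FB-1 1.

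EVM0041276 was one of 4 members lower in buds. It was listed at 0 in 8 of the 9 buds and at 4.49 TPM in FB-1 1, against 3.41, 9.57 and 61.7 TPM in leaves. All buds but FB-1 1 lay below every leaf library, and the difference was -3.33 (SE 0.39, limma adjusted p 3.24e-07). Without FB-1 1 every bud is listed at 0, so no fold is given for that fit, in which the member was still called. EVM0009999 had 13.5 TPM in FB-1 1 and at most 2.23 TPM in the other buds, against 3.84, 16.9 and 43.9 TPM in leaves. Its difference was -3.24 (SE 0.31, limma adjusted p 1.94e-08), or -3.58 without FB-1 1. In both, FB-1 1 was the highest bud and lay within the range of the leaves.

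**Figure D5:**
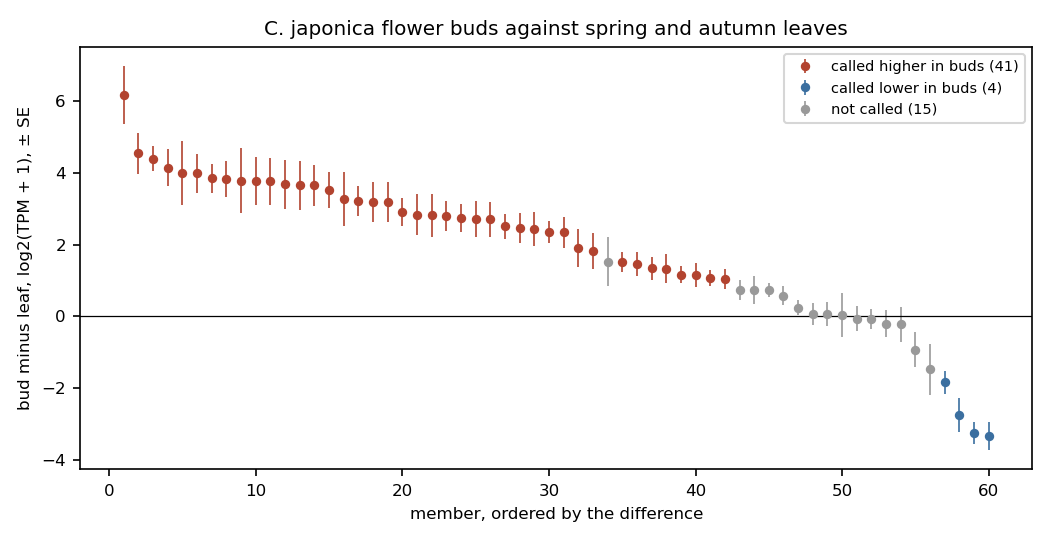
Bud minus leaf difference (points) with its standard error (bars) on log2(TPM + 1) for each of the 60 members, in C. japonica buds against spring and autumn leaves, ordered by size. Of the members, 41 are called higher in buds, 4 lower and 15 not called, from 6.17 for EVM0010546 to -3.33 for EVM0041276.

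The members with the highest mean over buds were EVM0009820 and EVM0029423. EVM0009820 had 61.6, 1420.0 and 952 TPM in the FB-1 libraries, 552, 427 and 648 TPM in FB-2 and 461, 684 and 156 TPM in FB-3. It was abundant in leaves too, with 83.2, 142 and 418 TPM over the 18 libraries. EVM0029423 had 0.666, 1722 and 1591 TPM in FB-1, 474, 363 and 361 TPM in FB-2 and 73.0, 139 and 71.7 TPM in FB-3, against 1.68, 9.56 and 187 TPM in leaves. Apart from FB-1 1, its levels were highest in FB-1, lower in FB-2 and lowest in FB-3. With FB-1 1 set aside, 39 members had their highest bud mean in FB-1, 8 in FB-2 and 12 in FB-3. EVM0041276, at 0 in all 8 buds left, had no highest one. In all, 4 members stayed below a mean of 1 TPM in the 8 buds. The shares of other IDs in these counts were not taken. Calls over all IDs without FB-1 1 also leaned to FB-1, with 9.98% lower and 4.79% higher in FB-3 than in FB-1.

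Between bud stages the calls depended on the library labelled FB-1 1. It lay below all other buds for 42 members, and the share of other IDs for which it did so was not taken. With all 9 buds, of the 57 members tested limma called 0 in FB-2 against FB-1, where 0.609% of IDs were called higher and 0.0136% lower, and 0 members had an unadjusted p below 0.05. In FB-3 against FB-2 it called 0, where 0.0% of IDs were called in either direction, with 5 members at an unadjusted p below 0.05. In FB-3 against FB-1 it called 0, where 1.39% were called higher and 0.626% lower, with 4 at an unadjusted p below 0.05. Without FB-1 1, 16 members were called lower in FB-3 than in FB-1, where 9.98% of IDs were, and 1 higher, where 4.79% were. Without it FB-2 against FB-1 had 2 members lower (0.765% of IDs) and 0 higher (0.947%), and FB-3 against FB-2 had 3 lower (0.971%) and 1 higher (0.333%).

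The bud calls can be set beside the leaf calls of C. azalea, which share no library with them. Of the 41 members higher in buds, 28 were called higher in C. azalea spring leaves, where 13.7% of eligible IDs higher in buds were. Of the 15 not called in buds 6 were, where 1.36% of eligible IDs not called in buds were, and of the 4 lower in buds 0 were, where 4.68% were. Without FB-1 1 these counts were 29 of 43, 5 of 13 and 0 of 4. The difference between these classes was not tested. With the library labelled Feb leaf 1 counted as a winter leaf the median winter minus summer difference of the members in C. japonica was -0.92, with 0 members above 0, and 42 of the 60 would still have been chosen.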

How the data were processed

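Expression was measured by RNA sequencing of C. japonica and C. azalea young leaves and C. japonica flower buds. The authors deposited 1 table of TPM values per species. HISAT2 2.1.0 and StringTie 1.3.6 were used, per the submitters' processing notes. Which settings, build and annotation were used is not given in the sources used here. The deposited TPM sum to 1000000 per library, so depth is unknown, no counting interval is given, and a gene can be listed lower because others take more of the total. Each column was matched to the library whose title holds its code. The labels number the C. azalea replicates, whereas C. japonica libraries were numbered by deposit order, which only names them.

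The members and lists were chosen with earlier results of these data known. The choice used winter and summer leaves, so only spring and autumn leaves and buds were tested. limma 3.58.1 in R 4.3.3 was fitted to log2(TPM + 1) with a mean per month or bud label, months of a season weighted equally, and a mean-variance trend, two-sided, on IDs reaching 1 TPM in 3 or more fitted libraries, and the procedure was tested on simulated data. Fold changes on this scale understate changes of low genes. Named IDs were the 2 called members with the largest differences in each direction and at least 5 TPM in the higher group. From the selection came the first 2, the rank 60 and 61 IDs and the 2 with the smallest overlap. The 2 with the highest bud mean were named as well. EVM0024933, EVM0032135 and EVM0039048 were named after their values were seen. Values are given for 2 or fewer IDs per direction, since no annotation was used. Alternatives were a pseudocount of 0.1, no filter, median-of-ratios scaling, quantile normalization, month means, all leaf libraries in the fit, a replicate block and leaving out each library; leaving out FB-1 1 and Mar leaf 3 together was added after the data were seen.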

Additional observations from a re-analysis of the deposited data

Results flagged for a closer look

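Among 162 groups of 4 to 10 libraries of the members named by the rules above, 22 had a library standing apart by Dixon's ratio. Chance gives about 1 group in 20 where groups are independent and not mixed. These groups pool months or bud labels and share libraries, so that rate is no yardstick for them. Mar leaf 3 was the highest C. japonica spring library for EVM0012501 (170.3 TPM), EVM0036026 (36.54 TPM), EVM0010546 (94.13 TPM) and EVM0029423 (186.5 TPM). The library labelled FB-1 1 was the lowest bud for EVM0037495 (2.547 TPM), EVM0007121 (2.048 TPM), EVM0036026 (1.402 TPM), EVM0010546 (0 TPM), EVM0022543 (1.099 TPM) and EVM0029423 (0.6656 TPM), and the highest bud for EVM0009999 (13.46 TPM) and EVM0041276 (4.489 TPM). FB-1 2 was the highest bud for EVM0008064 (2.634 TPM).

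Jan leaf 3 was the highest C. japonica winter library for EVM0008064 (436 TPM) and EVM0016210 (940.6 TPM), and Dec leaf 1 for EVM0007121 (8.712 TPM). Sep leaf 1 was the highest C. japonica autumn library for EVM0016210 (152.6 TPM), and May leaf 3 the highest spring library for EVM0008064 (12.12 TPM) and EVM0041276 (24.87 TPM). In C. azalea winter the highest libraries were Dec leaf 2 for EVM0009999 (16.21 TPM), Jan leaf 3 for EVM0014045 (13.77 TPM) and Jan leaf 1 for EVM0010546 (51.47 TPM).

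The species difference, C. japonica less C. azalea, was called for 5 named cases. For spring against autumn it was -5.41 for EVM0027551, -4.77 for EVM0036026 and 1.76 for EVM0029158. For March and November against May and September it was -6.16 for EVM0008064 and -5.43 for EVM0016210.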

How the results depend on the processing

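Of 121 values of the 19 named tests under other settings, 109 kept their call, 12 lost it and 0 reversed. Of the 12, 8 were lost with month means as the unit. With 1 library left out, 13 of 468 values lost the call and 0 reversed. The members themselves depend on the processing: 33 of the 60 were still chosen after median-of-ratios scaling and 33 with a minimum of 1 TPM, against 49 with a pseudocount of 0.1 and 42 with Feb leaf 1 included. In spring against autumn, 17 members were called in C. azalea with month means. In March and November against May and September of C. azalea, 8 were called after quantile normalization and 0 with month means, and of the species difference 2 were called with all leaf libraries in the fit and 0 with month means. FB-3 against FB-1 had 1 member called after median-of-ratios scaling. The causes were not tested. Month means leave fewer units and also bring in the spread between months, and these were not separated.

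With each library left out in turn, the members called ranged from 11 to 20 in C. japonica spring against autumn, 30 to 39 in C. azalea and 32 to 38 for the species difference. For March and November against May and September they ranged from 0 to 1 in C. japonica, 9 to 15 in C. azalea and 3 to 4 for the species difference. For buds they ranged from 43 to 48 against leaves, 0 to 2 in FB-2 against FB-1, 0 to 4 in FB-3 against FB-2 and 0 to 17 in FB-3 against FB-1.

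Over all IDs, C. azalea spring against autumn called 2225, against 3555 with a pseudocount of 0.1 and 856 with month means, and the species difference 4829, against 2554 with month means. For March and November against May and September the C. azalea count was 525, against 0 with month means, that of C. japonica 19, against 12 with either scaling, 60 with all leaf libraries and 0 with month means, and that of the species difference 142, against 91 with all leaf libraries and 0 with month means. With each library left out in turn, the count over all IDs was 0 to 208 for March and November against May and September in C. japonica and 91 to 212 for the species difference. For buds it was 82 to 499 in FB-2 against FB-1 (183 with all 9), 0 to 380 in FB-3 against FB-2 (0 with all 9) and 113 to 4306 in FB-3 against FB-1 (594 with all 9), the highest each time being without FB-1 1. With quantile normalization FB-3 against FB-2 called 1 ID, against 0 as deposited.

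Same-numbered C. azalea libraries did not deviate together on the median (r 0.0002, 7 of 45 pairs over 0.1). Those of different number had a median r of 0.009 (19 of 90 pairs over 0.1). Of 18 libraries, 5 correlated best with their own number. Such correlations cannot tell whether libraries of a number shared a plant or a batch. With the replicate number as a block 11 members were called in March and November against May and September and 36 in spring against autumn of C. azalea, and 3 and 34 for the species differences, with 0 named calls lost. Unknown depth limits what can be said of low values.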
